A study of Rattus norvegicus with 6 samples.

Results

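The 60 genes described here are curated noncoding RNAs of the rat, out of 19623 genes tested on an expression array. Members were chosen by accession, detection and brightness. The probe's reference transcript had to carry a curated RefSeq accession for noncoding RNA, the scanner software had to call the probe well above background on at least 3 of 6 arrays, and the brightest probe stood for each gene name. The array held 145 such probes under 118 names. Of these names 62 passed, and 60 remained after H19 and RGD1566401 were set aside. The cells were rat bone marrow stromal cells (rBMSCs), the adherent cells grown from marrow, here of the tibia. For 7 days they had grown on titanium modified with tantalum (Ta, n = 3) or on plain titanium, called the simple Ti surface in the labels (Ti, n = 3). No strain, age, genotype or drug was named in the labels, and nothing in them sets the groups apart other than the surface. The protocol text of the Ti samples repeats the wording of the Ta samples, while their titles, descriptions and culture fields name the simple surface, which was followed. The series text calls the 3 cultures of a group independent experiments.

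Noncoding RNAs work as RNA. Structural RNAs form the core of large machines: ribosomal RNAs build the ribosome, 7SL RNA holds the signal recognition particle together, the RNA of ribonuclease P cuts precursors of transfer RNA, and Terc is the template of telomerase. Long noncoding RNAs (lncRNAs) are capped and mostly polyadenylated like messengers. Some host small nucleolar RNAs in their introns, and many start close to a coding gene on the opposite strand. Pseudogene transcripts resemble a parent gene and may share its probe signal. The labelling kit named in the labels primes from poly(A) tails, which most structural RNAs lack. How far priming differed between arrays was not tested.

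The probes behind 5 of the 6 structural RNAs are shown because the results turn on them. Each is 60 bases long and written 5′ to 3′ on the RNA's strand, with no capitals because none holds a poly(A) signal hexamer (AATAAA or ATTAAA). Coordinates are those of the array files, on rat build rn4. The ribosomal probes for Rn5-8s (chrUn:441062-441121), Rn45s (chrUn:443590-443649) and Rn18s (chrUn:23405521-23405580) lay on unplaced sequence, all on the plus strand. The probe called Rmrp lay at chr15:26789869-26789928 on the minus strand. The Terc probe lay at chr2:117234748-117234807 on the plus strand.
Rn5-8s: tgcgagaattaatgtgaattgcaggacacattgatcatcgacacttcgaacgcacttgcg
Rn18s: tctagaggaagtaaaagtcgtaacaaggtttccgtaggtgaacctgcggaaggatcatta
Rn45s: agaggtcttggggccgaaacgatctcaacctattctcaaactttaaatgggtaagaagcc
Rmrp: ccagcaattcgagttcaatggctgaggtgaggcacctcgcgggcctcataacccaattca
Terc: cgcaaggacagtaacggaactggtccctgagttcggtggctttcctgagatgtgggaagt

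The probes of 6 lncRNAs are shown next, picked among those described below on both sides of 0, with a poly(A) signal hexamer in capitals where there is one. The AA926063 probe lay at chr20:5128225-5128284 on the minus strand, and that of LOC100911717, now named Ptgs2os, at chr13:64423426-64423485 on the minus strand. LOC690120 was read at chr7:96440965-96441024, minus strand, and LOC100912312 at chr2:201778641-201778700, minus strand. LOC680254, now 2810025M15Rikl, was read at chr13:72679808-72679867 on the plus strand, and LOC100909539 at chr2:84721931-84721990 on the minus strand. In these last 2 probes the hexamer ended 14 and 6 bases before the probe's end.
AA926063: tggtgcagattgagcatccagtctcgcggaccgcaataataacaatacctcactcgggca
LOC100911717: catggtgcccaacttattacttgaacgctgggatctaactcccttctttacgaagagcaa
LOC690120: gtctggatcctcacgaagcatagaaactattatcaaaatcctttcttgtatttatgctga
LOC100912312: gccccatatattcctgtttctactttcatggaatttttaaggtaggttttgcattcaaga
LOC680254: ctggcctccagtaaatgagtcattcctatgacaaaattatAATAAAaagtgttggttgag
LOC100909539: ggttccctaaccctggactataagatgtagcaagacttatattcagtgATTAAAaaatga

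Levels are given as log2 signal, the scanner's processed intensity brought to a common 75th percentile, and differences as Ta minus Ti on the log2 scale with limma's standard error (SE). Adjusted p-values come from limma with Benjamini-Hochberg adjustment over the 19623 genes. Levels of different probes are not comparable, since probes bind with different strength. The 75th percentile of the intensity lay between 1848 and 2388 over the 6 arrays, and 62.7% to 65.9% of the spots were well above background. All 9 stromal markers were measured, with a mean log2 signal of 13.32 to 13.41 on Ta and 13.31 to 13.32 on Ti. This mean held opposite differences: 2 stromal markers were higher past the test, Cxcl12 by 1.06 (adjusted p 0.045 in limma) and Thy1 by 0.67 (0.044), while Col3a1 differed by -0.68 (0.066). Of the bone-forming markers, 4 of 6 were measured and Ibsp and Bglap were not well above background on at least 3 arrays. None of the 4 passed the test. Runx2 differed by -0.35 and Alpl by 0.49, both without overlap and with an unadjusted p under 0.05 in limma. Sp7 differed by 0.54 and Spp1 by -0.36, both with overlap. Markers of other marrow cells moved between the groups. The 15 macrophage markers averaged 9.97 to 11.67 on Ta and 12 to 12.08 on Ti, with 0 past the test and 9 at an unadjusted p under 0.05 in limma. Cd14, among these 9, differed the other way, by 0.34. The 6 of 8 mast cell markers measured averaged 4.10 to 4.63 against 5.97 to 6.41, with 4 lower. No Ta array had Cma1 or Mcpt1l1 well above background. Hdc differed the other way, by 0.73 with every Ta array above every Ti array (limma adjusted p 0.056), and Fcer1a by -0.25 with overlap. The 3 of 6 neutrophil markers measured averaged 6.28 to 7.27 against 4.40 to 5.22, with 2 higher. The 8 cell cycle markers averaged 9.06 to 9.73 against 8.93 to 9.08, with 1 higher. The 5 endothelial markers averaged 6.35 to 6.77 against 6.81 to 7.03, with 0 past the test and 1 at an unadjusted p under 0.05. Only 1 of 4 erythroid and 1 of 5 lymphocyte markers were measured. The part of these markers in the results below was not tested, and in RNA of mixed cells fewer cells of a type and less RNA per cell cannot be told apart.

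Detection chose the members, so it is described without a test. Of the 118 names, 50 were well above background on no array and 53 on all 6. Just outside the limit of 3 arrays lay Lnc016 and Tnxa-ps1, each called on 1 Ta and 1 Ti array. Just inside lay RGD1559747, called on 2 Ta arrays and 1 Ti array, and AA926063 and LOC102549772, each called on 3 Ta arrays and 0 Ti arrays. AA926063 and LOC102549772 therefore entered only through the Ta group, so their differences are described without a test, and the counts of members below hold both. The chosen probes of 51 members were well above background on all 6 arrays, and none of the 60 (0) was saturated. By the classes of a RefSeq table of the GRCr8 assembly, matched by accession for 56 members and by symbol for 4, the members were 42 lncRNAs, 6 structural RNAs, 8 pseudogenes and 4 genes now classed as protein coding. Of the lncRNAs, 21 still had only a placeholder name.

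Of the 60 members, 2 passed the test, both higher on Ta, the ribosomal RNA Rn5-8s and the probe called Rmrp. Of all 19623 genes 808 passed, 4.12%, with 2.66% higher and 1.46% lower, so the members' share lay near the background. No member (0) was lower past the test, while 23 members, 16 higher and 7 lower, had an unadjusted p under 0.05 in limma, against 29.9% of all genes. The groups did not overlap in 23 members, 17 with Ta above and 6 with Ta below, against 35.8% of all genes, of which 19.5% lay above and 16.3% below. The difference was above 0 in 35 members and below 0 in 25, with a median of 0.07 against 0.026 over all genes. It ran from -2.55 to 2.39 and reached 2-fold in 6 members. The median absolute difference was 0.215 for the members and 0.198 for all genes.

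**Figure D1:**
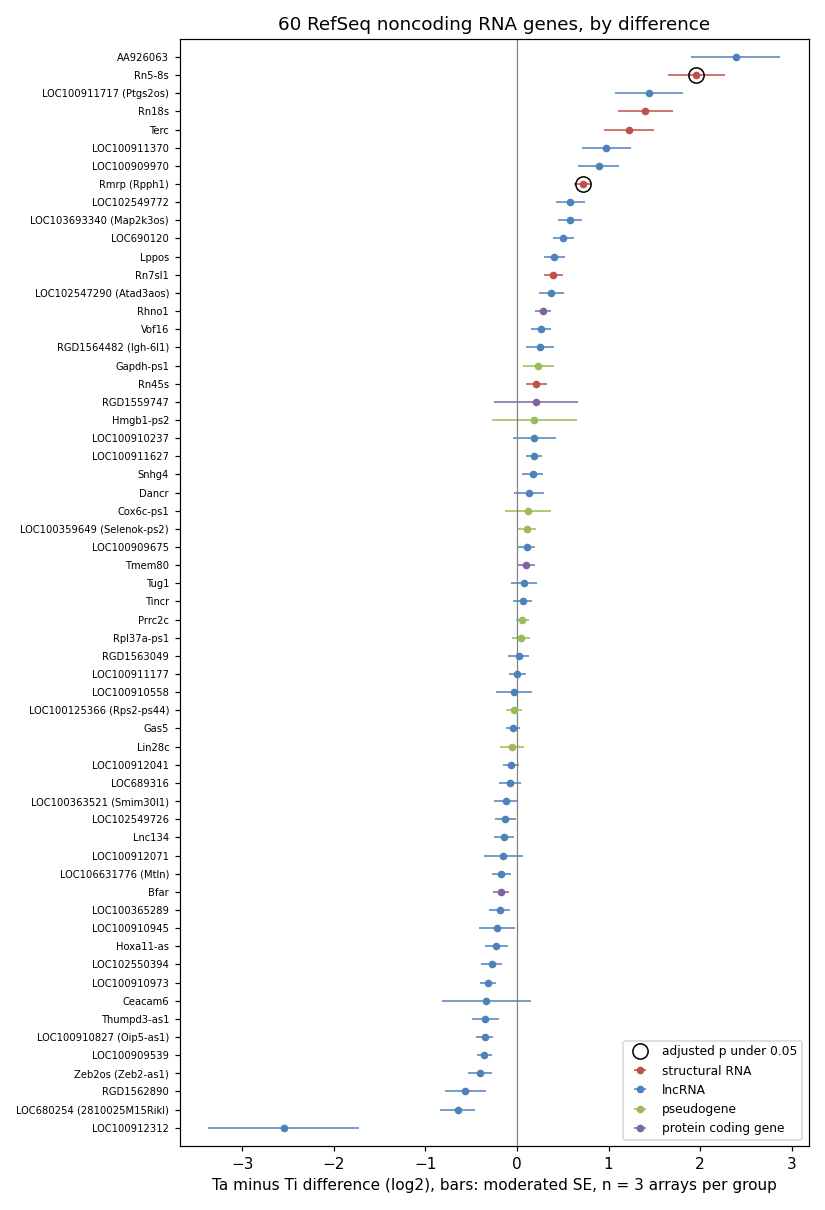
Ta minus Ti difference in log2 signal (x axis) of each of the 60 members (y axis, file name and present symbol), with bars of the moderated SE, n = 3 arrays per group. Colours give the class, and circles mark Rn5-8s and Rmrp, the 2 members with an adjusted p under 0.05.

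The structural RNAs were all higher on Ta in their group means. Of 6 members 2 rose past the test, against 2.66% of all genes, and 5 had every Ta array above every Ti array, against 19.5%. The median difference was 0.97, within a range of 0.21 to 1.96. Rn5-8s, Rn18s and Rn45s belong to the same precursor, so the 6 are not separate observations. The difference was above 0 for each of the 6 in all 17 alternative settings tried. These settings reuse the same arrays, and some, such as the trend and robust settings, leave the difference unchanged, so they add no separate evidence. Among the 42 lncRNAs 20 were above 0 and the median was -0.04. The 5.8S ribosomal RNA, Rn5-8s, pairs with the large ribosomal RNA and is cut from the same precursor. Its log2 signal was 11.53, 12.49 and 12.64 on the Ta arrays and 10.14, 10.55 and 10.10 on the Ti arrays. All 3 Ta arrays lay above the Ti arrays, with Ta replicate 1 nearest to them. The difference was 1.96 ± 0.31 (SE, n = 3 per group), a 3.88-fold higher signal, with an adjusted p of 0.043 in limma.

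Rn18s, the RNA of the small ribosomal subunit, read 11.39, 12.28 and 12.44 on Ta and 10.51, 10.96 and 10.42 on Ti. The groups did not overlap, and Ta replicate 1 was again the lowest of its group. The difference of 1.40 ± 0.30 missed the threshold, with a limma adjusted p of 0.057. Rn45s names the long precursor that is cut into the ribosomal RNAs. Whether its probes read the precursor or a ribosomal RNA cut from it was not tested, so their signal is not taken as precursor alone. Its chosen probe read 16.81, 16.92 and 17.04 on Ta and 16.85, 16.53 and 16.75 on Ti, with Ti replicate 1 above Ta replicate 1. The difference was 0.21, with a 95% interval from -0.07 to 0.49 and an adjusted p of 0.272. Its 2 other probes, also well above background, differed by 0.62 and 0.63. The chosen probe lay 2528 bases downstream of the start of the Rn5-8s probe on the same unplaced sequence. The other 2 lay 3276 and 5931 bases downstream of it. Ribosomal genes occur in many near-identical copies, and which copies these probes read was not tested.

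The probe called Rmrp in the file matches a transcript that the RefSeq table now names Rpph1, the RNA of ribonuclease P, though the table's class is ribonuclease MRP RNA, its relative in ribosomal RNA processing. The table places it at Parp2, which is where Rpph1 lies. It read 11.51, 11.53 and 11.69 on Ta and 10.94, 10.83 and 10.80 on Ti. The arrays of each group lay close together and apart from the other group. The difference was 0.72 ± 0.09 (SE, n = 3 per group), a 1.64-fold higher signal, with a limma adjusted p of 0.040. Parp2, the DNA repair gene at this place, differed the other way by -0.28, with an adjusted p of 0.090.

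Terc, the RNA template with which telomerase adds telomere repeats, read 6.78, 7.25 and 7.67 on Ta and 5.92, 6.40 and 5.71 on Ti. The groups did not overlap. The difference was 1.22 ± 0.27, with a limma adjusted p of 0.060, and 0.79 with normexp background correction, with an adjusted p of 0.027. Rn7sl1, the scaffold of the signal recognition particle that guides nascent secreted proteins to the endoplasmic reticulum, read 13.78, 13.87 and 13.82 on Ta and 13.26, 13.57 and 13.47 on Ti. Its difference of 0.39 had a 95% interval from 0.14 to 0.64 and an adjusted p of 0.073.

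**Figure D2:**
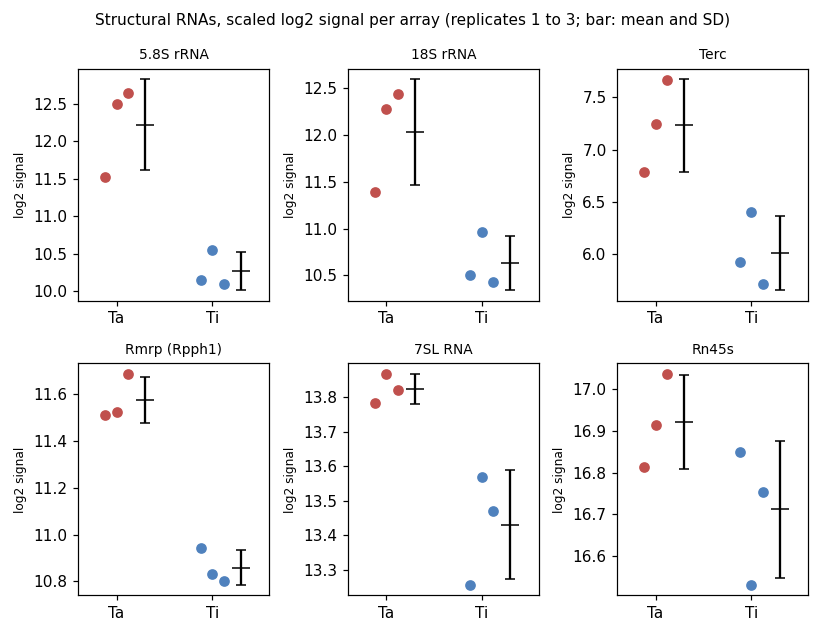
Log2 signal on each of the 3 Ta and 3 Ti arrays (points, replicates 1 to 3 from left to right) for the 6 structural RNAs, with the group mean and SD as a black bar. The y axis differs between panels and does not start at 0. Ta and Ti arrays overlap for Rn45s and for none of the other 5.

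Both calls depended on the arrays used. With replicate 2 of Ta left out, then replicate 3 of Ta, replicate 1 of Ti and replicate 3 of Ti, 0 of the 19623 genes passed limma's test each time, so that every call named below was lost too. In that order 3816, 3900, 4470 and 3817 genes had an unadjusted p under 0.05, Rn5-8s differed by 1.82, 1.75, 1.90 and 1.87, and Rmrp by 0.74, 0.66, 0.76 and 0.69. Without Ta replicate 1, 3219 genes and 13 members passed, 9 of them higher, and without Ti replicate 2, 1559 genes and 9 members passed, 7 of them higher. The 3 Ta arrays shared their slide row with Ti replicate 1. With slide row as a block, the fitted difference set Ta against Ti replicate 1 alone, as the other row held no Ta array. It was 2.08 for Rn5-8s and 0.63 for Rmrp, with limma adjusted p-values of 0.194 and 0.191.

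Ptgs2os and its neighbour were among the pairs of a lncRNA and a coding gene in which both had the higher signal on every Ta array. Ptgs2os starts on the strand opposite to Ptgs2, the inducible cyclooxygenase that makes prostaglandin precursors, 226 bases away. It read 9.75, 10.92 and 11.21 on Ta and 9.02, 9.40 and 9.13 on Ti. The groups did not overlap, and Ta replicate 1 lay closest to the Ti arrays. The difference was 1.44 ± 0.38, with a limma adjusted p of 0.073. Ptgs2 itself read 13.44, 14.58 and 14.76 on Ta and 11.59, 12.42 and 11.90 on Ti, and rose by 2.29 ± 0.39 with an adjusted p of 0.045.

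The 2 genes share a start region, which is why it is shown. Their RefSeq promoter windows of 250 bases before and 50 after the start overlap by 275 bases, as reverse complements. The window of Ptgs2os lies at chr13:64713788-64714087 on the minus strand of build GRCr8. Capitals mark an E-box, CACGTG, which reads the same on both strands and begins at position -176 from the start of Ptgs2os and -55 from that of Ptgs2. It occurs in 6.42% of 33469 promoter windows of this length. The motifs TATAAA (14.22% of windows), the cyclic AMP response half-site CGTCA (21.2%), the AP-1 site TGANTCA (7.33%), the C/EBP consensus TTGCGCAA (0.17%) and the NF-kB consensus (4.18%) were searched on both strands and had no match in these letters.
Ptgs2os promoter: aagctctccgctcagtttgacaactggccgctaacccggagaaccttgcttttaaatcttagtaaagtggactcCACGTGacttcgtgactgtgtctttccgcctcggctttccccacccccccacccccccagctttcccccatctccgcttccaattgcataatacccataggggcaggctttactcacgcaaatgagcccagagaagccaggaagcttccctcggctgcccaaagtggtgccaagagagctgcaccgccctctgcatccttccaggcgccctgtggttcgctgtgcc

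LOC690120 lies 408 bases from Trib1, a pseudokinase gene that controls protein turnover, and was chosen after its values were seen. It read 6.02, 5.9996 and 6.16 on Ta and 5.40, 5.74 and 5.52 on Ti, without overlap. Its difference was 0.51 ± 0.11, with an adjusted p of 0.061. Trib1 rose by 0.48 ± 0.09, with a limma adjusted p of 0.049. Of 39 nearest coding genes that were measured, Ptgs2 and Trib1 were the 2 that passed the test, a share near the 4.12% of all genes.

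In the other pairs described here the coding neighbour did not pass the test. LOC103693340, now Map2k3os, lies 153 bases from Map2k3, a kinase of the p38 pathway. It read 7.60, 7.82 and 7.94 on Ta and 7.04, 7.38 and 7.20 on Ti. The groups did not overlap, and the difference was 0.58 with an adjusted p of 0.062, while Map2k3 differed by 0.20 with an adjusted p of 0.302. Lppos, also chosen after its values were seen, lies within the locus of Lpp, a gene for a protein of focal adhesions. Lppos differed by 0.41 and Lpp by -0.37, with adjusted p-values of 0.080 and 0.095. Zeb2os, now Zeb2-as1, overlaps Zeb2, a repressor of epithelial genes. It read 6.42, 5.98 and 6.09 on Ta and 6.51, 6.65 and 6.55 on Ti, a difference of -0.40 with an adjusted p of 0.104. Its 2 other probes gave -0.41 and -0.46, and normexp background correction gave -0.14. Zeb2 differed by -0.04.

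LOC100912312 had the lowest difference of the 60 and was chosen after its values were seen. It overlaps Dennd2d, a gene for an activator of Rab proteins, on the opposite strand. It read 6.28, 4.05 and 3.30 on Ta and 7.49, 6.10 and 7.66 on Ti, and on Ta replicate 3 it was not well above background. Ta replicate 1 lay above Ti replicate 2, so the groups overlapped. The difference of -2.55 ± 0.82 had a 95% interval from -4.55 to -0.55 and an adjusted p of 0.105. Dennd2d read 7.18, 6.14 and 5.59 on Ta and 7.47, 7.40 and 7.66 on Ti, a difference of -1.21 with an adjusted p of 0.102. The macrophage markers averaged 11.67, 10.76 and 9.97 on the same Ta arrays and 12, 12.01 and 12.08 on the Ti arrays, and their part in this result was not tested.

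**Figure D3:**
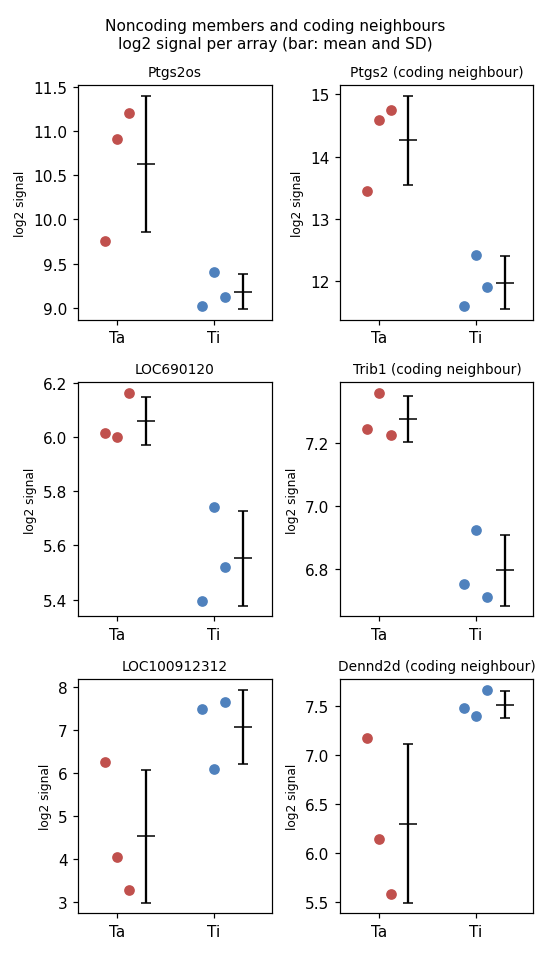
Log2 signal on each array (points, replicates 1 to 3 from left to right) for 3 lncRNAs and the coding gene beside each, with the group mean and SD as a black bar and y axes that differ and do not start at 0. Ptgs2os and Ptgs2, and LOC690120 and Trib1, are higher on every Ta array, and LOC100912312 and Dennd2d are lowest on Ta replicate 3.

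AA926063 had the highest fitted difference of the 60, 2.39. It read 4.04, 5.26 and 5.42 on Ta and 2.26, 3.32 and 1.98 on Ti, where no array had it well above background. Its signal was 4.02-fold higher on Ta, taking for each Ti array the higher of its own signal and the lowest signal called above background. That fold is not a lower bound, since signals that are not called can exceed the lowest called one. Its own did on Ti replicate 2, with 3.32 against 2.94. LOC102549772, also well above background on 0 Ti arrays, was 1.497-fold higher by the same rule, which here equals its fitted fold. LOC100911370 read 5.28, 5.26 and 5.54 on Ta and 4.63, 3.77 and 4.77 on Ti, and differed by 0.97 with an adjusted p of 0.081. LOC100909970 read 4.42, 5.18 and 5.14 on Ta and 4.18, 3.84 and 4.05 on Ti, and differed by 0.89 with an adjusted p of 0.070. Neither of the last 2 was well above background on Ti replicate 2. With normexp background correction the differences of AA926063, LOC102549772, LOC100911370 and LOC100909970 were 0.55, 0.16, 0.39 and 0.33, and the last 2 passed the test, with adjusted p-values of 0.029 and 0.046. These 4 RNAs have no described role given here.

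The 6 members with every Ta array below every Ti array held 5 lncRNAs and Bfar, a gene for a membrane regulator of cell death, and none passed the test. LOC680254 read 9.36, 9.15 and 9.12 on Ta and 10.03, 9.44 and 10.11 on Ti, a difference of -0.65 with an adjusted p of 0.092. LOC100909539 read 12.11, 11.95 and 12.10 on Ta and 12.40, 12.41 and 12.43 on Ti, a difference of -0.36 with an adjusted p of 0.062, and its other probe gave -0.48. LOC100910827, now Oip5-as1, the conserved RNA known as Cyrano, which binds a microRNA and has it degraded, read 10.18, 10.08 and 9.94 on Ta and 10.38, 10.36 and 10.51 on Ti. Its difference was -0.35 with an adjusted p of 0.080, and its other probe gave -0.21. LOC100910973 and Bfar differed by -0.32 and -0.17, with adjusted p-values of 0.086 and 0.227. Other probes of Bfar gave -0.25 and -0.07, the last of these with groups that overlapped.

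Gas5 and Snhg4, the members found by symbol on the list of small nucleolar RNA hosts used here, did not pass the test. Gas5, whose spliced RNA is degraded by nonsense-mediated decay, read 15.08, 15.11 and 15.18 on Ta and 15.13, 15.19 and 15.19 on Ti. The difference was -0.05, with a 95% interval from -0.23 to 0.13. Snhg4 differed by 0.17, with an interval from -0.12 to 0.46. Dancr, itself a host outside that list, known for holding back differentiation of progenitor cells and chosen here after its values were seen, differed by 0.13, with an interval from -0.27 to 0.53. The limma adjusted p-values of these 3 were 0.712, 0.376 and 0.635.

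Nuclear and antisense RNAs showed no difference past the test. Tug1, which binds chromatin regulators, read 8.94, 9.35 and 9.38 on Ta and 9.19, 9.01 and 9.23 on Ti. The difference was 0.08, with an interval from -0.27 to 0.43, its other probe gave -0.14, and the sign turned with the mean of its probes (-0.03) and without Ta replicate 3 (-0.0021). Hoxa11-as, antisense to the limb patterning gene Hoxa11, differed by -0.23, with an interval from -0.53 to 0.08, while its other probe gave 0.16. Thumpd3-as1 differed by -0.35, with an interval from -0.70 to 0.01. Over all members, 11 had 17 other probes that were well above background, and 4 of these 17 had the opposite sign to the chosen probe.

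Of the 8 members classed as pseudogenes 6 were above 0 on their chosen probes, with a median of 0.08 and a highest difference of 0.23. The groups did not overlap in 1, Prrc2c, with a difference of 0.06, while its other probes gave -0.06 to 0.67. Signal from a parent gene cannot be told apart from that of a pseudogene. Of the 4 coding genes 3 were above 0, within -0.17 to 0.28, and none of the 12 (0) passed limma's test, with 1 at an unadjusted p under 0.05. Of the 60 member probes 21 held a poly(A) signal hexamer, against 15.6% of all probes tested, and these were 16 lncRNA probes, 3 pseudogene probes, 2 coding gene probes and 0 structural RNA probes. The median GC content was 43.3% for members and for all probes, with 43.3% to 55% in the structural RNAs.

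**Figure D4:**
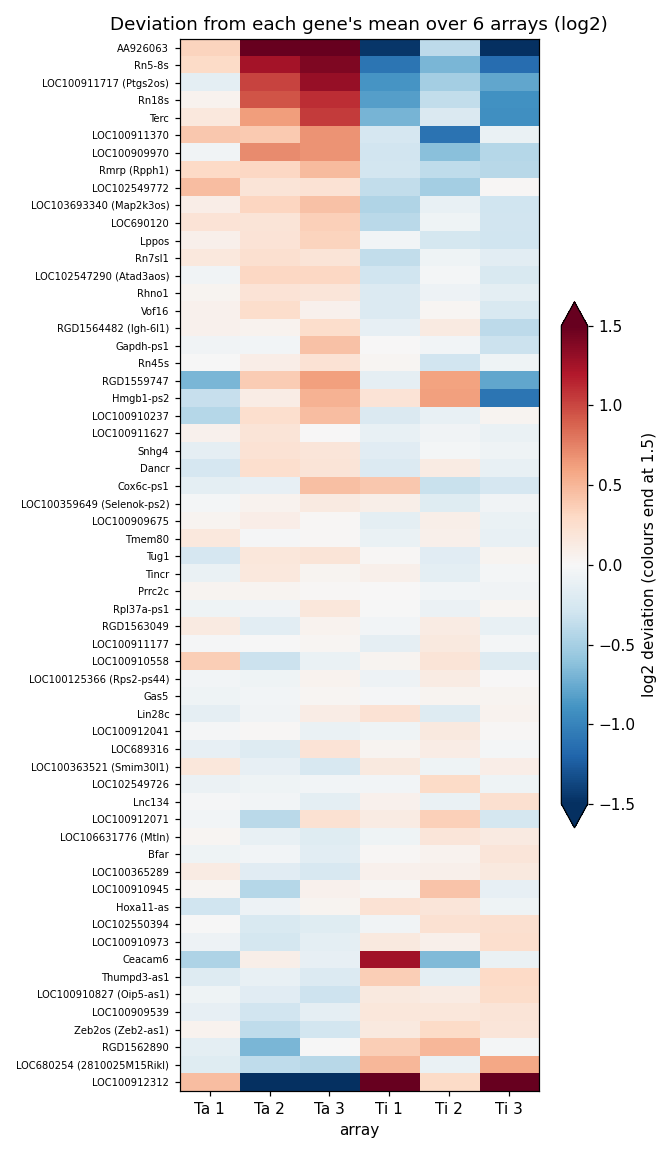
Deviation of each array's log2 signal from the mean of the 6 arrays (colour, ending at 1.5 log2 units) for the 60 members (rows, from the highest to the lowest difference) and the 6 arrays (columns). Rn5-8s, Rn18s, Terc and Ptgs2os are lower on Ta replicate 1 than on Ta replicates 2 and 3, and most rows in the middle are pale.

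Proteins that work with these RNAs were read from a list of 77 names, in which Nhp2l1 is an alias of Snu13. Of the genes, 73 were measured and 3 were not. Of the 73, 1 was higher and 1 lower past the test, against 4.12% of all genes, and 22 had groups that did not overlap, against 35.8%, so neither share lay above the background. The median difference was 0.07. Jarid2, a cofactor of Polycomb repressive complex, rose by 0.67 ± 0.12 with a limma adjusted p of 0.0454. Its signal was dim, at 4.45, 4.87 and 4.65 on Ta and 4.03, 3.95 and 3.97 on Ti. The Ti values lay near the 3.84 of LOC100909970 on Ti replicate 2, which was not well above background. Prkra, a partner of Dicer in microRNA processing, fell by 0.51 on the log2 scale with an adjusted p of 0.0458. Among the 9 proteins of the telomerase and box H/ACA group, 7 were above 0, none (0) passed and 2 had an unadjusted p under 0.05. Tert, the protein subunit that copies Terc, read 7.77, 7.95 and 7.98 on Ta and 7.61, 7.45 and 7.34 on Ti, a difference of 0.43 ± 0.11 with an adjusted p of 0.068. Tep1, a telomerase-associated protein and the other of these 2, differed by -0.49 ± 0.15 with an adjusted p of 0.098, also without overlap. The 11 proteins of ribonucleases P and MRP had a median difference of 0.06, with 0 past the test and 2 at an unadjusted p under 0.05, Rpp14 among them with 0.32 and an adjusted p of 0.083. The 6 signal recognition particle proteins measured had a median of -0.04. Hexim2 of the 7SK particle and Smg9 of nonsense-mediated decay differed by -0.33 and -0.31, with adjusted p-values of 0.071 and 0.086.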

How the data were processed

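RNA of 6 cultures was hybridised to 1-colour arrays. Per the file headers and the submitters' processing notes, Agilent Feature Extraction (version 12.0 in the notes) made the deposited intensity values, background-subtracted spot signals that the authors did not scale between arrays. The notes also name limma. The deposited value table equalled this signal. The intensities of Ta replicate 2 and Ti replicate 3 are rounded to 3 significant digits in the files. All arrays lay on 1 slide, with Ti replicates 2 and 3 alone in its row 2.

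The log2 intensity of each array was scaled to the 75th percentile of its 58717 non-control spots. Outlier spots were left out and the spots of each of the 45598 probes were averaged. A gene was its brightest probe, or the brightest noncoding RefSeq probe where the name had one, if well above background on at least 3 arrays. Ta was compared with Ti in limma 3.58.1 (R 4.3.3; lmFit and eBayes, two-sided), with Benjamini-Hochberg adjustment over all genes and a threshold of 0.05. The number of arrays limits the precision. On simulated data with 200 of 19623 genes changed, 65% of changes of 1 and 88% of changes of 2 on the log2 scale were recovered, with 10 false calls. In the real data 808 genes passed and 29.9% had an unadjusted p under 0.05 in limma. The simulated setting therefore differs from these data, and its shares are not a recovery rate for them. Where no array of a group was above background, the fold used the higher of each array's signal and its lowest called signal.

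The members, gene lists, neighbours and motifs were chosen with earlier results of these data known. Named are members past the test, the 10 largest rises and falls without overlap, members of the role lists, and up to 6 partner genes with the smallest p. Others are marked. Alternatives were other scalings, normexp background correction (offset 50), other filters and probe rules, trend and robust eBayes settings, replicate and slide row blocks, and leaving out each array. Replicate numbers are not stated to pair the arrays, so the main fit held no replicate block. The sequence of 1 structural RNA probe is not reported here.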

Additional observations from a re-analysis of the deposited data

How the results depend on the processing

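The 2 calls among the members did not hold under every alternative. Leaving out an array in turn gave 0 to 3219 genes past the test, 0 to 13 members, 0 to 9 higher and 0 to 4 lower members, and 0 to 6 partner genes, with limma's test throughout. The members' median difference was 0.07, and -0.0035 without Ta replicate 3. Normexp background correction gave 2588 genes, 14 members (12 higher, 2 lower) and 5 partner genes, and trend and robust settings gave 2099 genes, 9 members (7 higher, 2 lower) and 1 partner gene. A filter on all 6 arrays gave 6 members, all 6 higher, and 1 partner gene, and quantile scaling 1 partner gene. With no filter on dim probes 34904 genes were tested, 0 genes, 0 members and 0 partner genes passed, and 5811 genes and 21 members had an unadjusted p under 0.05. The slide row as a block gave 0 genes, 0 members and 0 partner genes, with 3836 genes and 15 members at an unadjusted p under 0.05. The replicate block gave 8 genes, 0 members and 0 partner genes, with 22 members at an unadjusted p under 0.05. Same-numbered arrays correlated at 0.0642, 0.134 and -0.18, which cannot exclude a pairing with 3 arrays per group. The labels state no pairing, so the numbers were not taken to pair the arrays. Median scaling put 53.5% of the genes called on the higher side, against 64.5%.

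Over 17 alternatives Rn5-8s differed by 1.75 to 2.30 and Rmrp by 0.63 to 0.76, and each passed in 10. Their adjusted p-values ran from 0.0068 to 0.194 and from 0.011 to 0.191. Terc passed in 5 and Rn18s in 4. With normexp, AA926063 differed by 0.55 against 2.39, LOC100911370 by 0.39 against 0.97, LOC100909970 by 0.33 against 0.89, LOC102549772 by 0.16 against 0.58, Zeb2os by -0.14 against -0.40, Hoxa11-as by -0.14 against -0.23 and Terc by 0.79 against 1.22. With the mean of its probes Hoxa11-as differed by -0.04 and Rn45s by 0.49 against 0.21. Tug1 reversed, to -0.030 with the mean of its probes and to -0.0021 without Ta replicate 3, within -0.0021 to 0.22 over the arrays left out. The causes were not tested.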
